A study of Mus musculus with 4 samples.

Results

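The metal-dependent protein phosphatases (PPM family, also called PP2C) are described here in mouse bone marrow cells by the 10 genes Ppm1a, Ppm1b, Ppm1d, Ppm1f, Ppm1g, Ppm1h, Ppm1k, Ppm1l, Ppm1m and Ilkap, listed by name, out of 55399 genes in the count table. Bulk RNA-seq libraries came from bone marrow cells labelled Lsk, a name used for cells that lack lineage markers and carry Sca-1 and Kit, among them haematopoietic stem cells. There were 2 libraries labelled Ppm1bCKO, whose Ppm1b alleles are conditionally deleted, and 2 labelled Ppm1bfl/fl, whose Ppm1b alleles are flanked by loxP sites. The Cre line, the deleted exons, the strain and the age of the mice are not given in the sources used here, and the labels do not tie replicates to individual mice, so a p-value here covers the spread between libraries, which may be technical. The labels name the genotype as the comparison, and the questions for this family were how its members rank in these marrow cells, whether Ppm1b transcripts were lower in the libraries labelled Ppm1bCKO, and whether any other member was higher there.

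PPM phosphatases remove phosphate from serine and threonine, need magnesium or manganese ions, and mostly act as single polypeptides without the regulatory subunits that steer PP1 and PP2A. PPM1A and PPM1B are the closest relatives within the family and share substrates in stress kinase signalling, among them the kinase TAK1. PPM1B has also been reported to act on the kinases IKKβ, TBK1 and RIPK3, which serve NF-kB signalling, interferon induction and necroptosis.

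Ppm1b (ENSMUSG00000061130.13) lies on chromosome 17, 84956741 to 85023991 on the plus strand of mm10, and its 8 annotated transcripts cover 5251 exonic bases, of which the longest transcript holds 3323. RefSeq (GRCm38.p6) gives it 3 transcript starts. The 250 bases before each start are shown because the gene-level count adds up transcripts from all 3, so a Ppm1b count cannot be assigned to a start or an exon. Capitals mark the dinucleotide CG, which reads the same on both strands.
Ppm1b upstream start, chr17:84956491-84956740, plus strand: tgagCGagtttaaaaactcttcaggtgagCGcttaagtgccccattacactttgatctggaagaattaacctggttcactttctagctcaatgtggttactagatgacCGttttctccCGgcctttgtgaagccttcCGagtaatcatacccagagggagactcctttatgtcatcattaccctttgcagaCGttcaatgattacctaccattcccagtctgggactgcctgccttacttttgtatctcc
Ppm1b middle start, chr17:84957751-84958000, plus strand: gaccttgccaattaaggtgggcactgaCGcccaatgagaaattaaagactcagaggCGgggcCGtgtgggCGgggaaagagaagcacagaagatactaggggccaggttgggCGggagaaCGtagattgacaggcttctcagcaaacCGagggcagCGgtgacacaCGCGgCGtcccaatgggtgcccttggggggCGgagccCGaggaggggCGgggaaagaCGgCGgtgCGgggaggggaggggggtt
Ppm1b downstream start, chr17:84964775-84965024, plus strand: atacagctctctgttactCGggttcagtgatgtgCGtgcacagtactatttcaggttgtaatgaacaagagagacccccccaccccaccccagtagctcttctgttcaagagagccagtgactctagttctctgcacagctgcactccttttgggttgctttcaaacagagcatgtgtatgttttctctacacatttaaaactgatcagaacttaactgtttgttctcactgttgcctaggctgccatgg
The windows hold 6 CG at the upstream start, 17 at the middle start and 2 at the downstream start. Of 32851 RefSeq windows of the same length, with 1 chromosome left out, 50.4%, 23.5% and 81.2% hold at least as many. Ppm1a, the closest relative, has 1 start in the same table, and its window holds 31 CG, a number that 5.19% of windows reach. Ppm1g and 1 of 2 starts of Ppm1m have as many CG in their windows, and Ppm1f, with 4, has the fewest among the other members in the table. Annotated exons of the same gene cover 142 of the 250 bases for Ppm1g and 223 for that start of Ppm1m, against 0 for Ppm1a.

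Library totals ran from 22393973 to 30045382 counts, and the library labelled Ppm1bCKO replicate 2 stood apart from the other 3. The SD over genes of the log2 difference between libraries was 0.48 to 0.59 for pairs that include it and 0.34 to 0.39 for the other pairs. The sex of the mice is not in the labels. Replicate 2 labelled Ppm1bCKO held 2 counts of 4 Y-linked genes, against 5870 to 6396 in the other libraries. The libraries labelled Ppm1bCKO therefore did not come from 1 mouse. In replicate 2 a part of sex cannot be told apart from its other differences. Its counts also varied with gene length: among genes with an average log2 CPM of at least 3, those of 1 to 2 exonic kb were a median 0.47 higher on the log2 scale than in the other libraries, and those over 8 kb were 0.32 lower. Kit and Ly6a (Sca-1), which define Lsk cells, ran from 121 to 228 and from 17.7 to 22.2 counts per 1000000 counts of a library, normalised by TMM (CPM). Defining markers of mature cells were also present in every library, among them Hbb-bs of red cells (2783 to 7038 CPM), Prg2 of eosinophils (1484 to 4200 CPM), Jchain of plasma cells (463 to 2448 CPM) and S100a9 of neutrophils (1159 to 1598 CPM). Among the listed markers of plasmacytoid dendritic cells and of stroma, the most abundant were Irf8 (373 to 439 CPM) and Col1a1 (93.6 to 301 CPM). Among those of macrophages and of T or NK cells they were Vcam1 (110 to 156 CPM) and Nkg7 (69.7 to 102 CPM). The level of such a gene alone does not show which cells it came from. All 8 B and plasma cell markers lay above 1 CPM in every library, with a summed level of 692 and 1074 CPM in the libraries labelled Ppm1bCKO, against 2618 and 1544 CPM in Ppm1bfl/fl. Jchain made up most of that sum in each library, and of the 8 markers 5 were positive and 3 negative in log2 fold change. The 8 macrophage markers summed to 317 and 389 CPM in the libraries labelled Ppm1bCKO, against 486 and 514 CPM in Ppm1bfl/fl. In the other direction, the 6 eosinophil markers summed to 3991 and 6985 CPM in the libraries labelled Ppm1bCKO, against 2676 and 2903 CPM in Ppm1bfl/fl. The 6 markers of plasmacytoid dendritic cells summed to 691 and 695 CPM in the libraries labelled Ppm1bCKO, against 576 and 532 CPM in Ppm1bfl/fl. Irf8, at a log2 fold change of 0.14, made up most of that sum, whereas the median over the 6 markers was 1.0. The 6 markers of stroma and endothelium summed to 527 and 415 CPM in the libraries labelled Ppm1bCKO, against 386 and 408 CPM in Ppm1bfl/fl. Of these, 4 were positive and 2 negative in log2 fold change. Their most abundant, Col1a1, overlapped between genotypes (301 and 201 CPM in the libraries labelled Ppm1bCKO, against 93.6 and 222 CPM in Ppm1bfl/fl). The sums of the Lsk, neutrophil, erythroid and T and NK cell markers overlapped between genotypes. Of the 8 Lsk markers, however, 7 were negative and 1 positive in log2 fold change, with a median of -0.24. Kit alone among the 8 did not overlap, beside 41.1% of all tested genes. It had 187 and 121 CPM in the libraries labelled Ppm1bCKO, against 228 and 194 CPM in Ppm1bfl/fl (-0.46 ± 0.22, edgeR adjusted p = 0.717). The levels below therefore belong to all the cells collected, the part of this mixture in the results was not tested, and in bulk RNA fewer cells of a type and less RNA per cell cannot be told apart.

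Levels of different genes were compared per length, as counts per exonic kilobase scaled to a sum of 1000000 in each library (TPM). Ppm1g was the most abundant member in each library and Ppm1k the least, and between them the family spanned a 53.6-fold range of mean level (104-fold with the longest annotated transcript as the length). Ppm1g, a nuclear phosphatase that works with the splicing machinery and with histones, had 236 and 209 TPM in the libraries labelled Ppm1bCKO, against 193 and 231 TPM in Ppm1bfl/fl. That was 4.20-fold above the next member on average (5.21-fold with the longest transcript), and from 42.6% to 47.1% of the family's summed TPM in a library. In each library under 5% of the 16393 genes tested were as high, with 3.97% the lowest and 4.90% the highest share.

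After Ppm1g came a group of 4 genes whose order was not fixed. Ppm1m, whose product belongs with PPM1H to a branch of the family, had 56.3 and 51.6 TPM in the libraries labelled Ppm1bCKO, against 53.3 and 46.0 TPM in Ppm1bfl/fl. Ppm1b had 50.5 and 59.4 TPM in the libraries labelled Ppm1bCKO, against 45.4 and 46.8 TPM in Ppm1bfl/fl, above Ppm1m in 2 of the 4 libraries. Ilkap, which encodes a phosphatase that binds integrin-linked kinase, had a mean of 42.5 ± 3.4 TPM over the 4 libraries (SD, n = 4). Ppm1d, which encodes the p53-induced phosphatase WIP1 that acts on p53 and on DNA damage kinases, had a mean of 40.4 ± 3.8 TPM (SD, n = 4). Ilkap and Ppm1d each led the other in 2 libraries, whereas Ppm1b was above Ilkap in all 4, although the ranges of Ppm1b and Ilkap overlapped.

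Lower levels were found for Ppm1f and Ppm1a. Ppm1f, whose product acts on CaM kinases and PAK kinases, had 33.1 and 18.5 TPM in the libraries labelled Ppm1bCKO, against 33.3 and 30.9 TPM in Ppm1bfl/fl. Ppm1a ran from 20.6 to 25.8 TPM over the 4 libraries and was below Ppm1f in 3 of them. The 2 closest relatives therefore differed in level, with Ppm1a at 0.51 and 0.35 of the Ppm1b TPM in the libraries labelled Ppm1bCKO and at 0.54 and 0.50 of it in the Ppm1bfl/fl libraries. CPM ignores length, and Ppm1a has 12829 exonic bases. In CPM, Ppm1a was above Ppm1b in every library but replicate 2 labelled Ppm1bCKO. Ppm1a had 105 and 102 CPM in the libraries labelled Ppm1bCKO, where Ppm1b had 84.3 and 121 CPM. In Ppm1bfl/fl it had 107 and 99.9 CPM, where Ppm1b had 80.8 and 82.5 CPM.

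Ppm1h, Ppm1l and Ppm1k held the last 3 places in each library. Ppm1h, whose product removes phosphate from Rab GTPases in human cells, averaged 12.9 ± 1.7 TPM (SD, n = 4). Ppm1l, which encodes a phosphatase of the endoplasmic reticulum membrane, averaged 10.04 ± 2.38 TPM, a range that overlapped that of Ppm1h although Ppm1h was higher in all 4 libraries. Ppm1k, the mitochondrial phosphatase that activates branched-chain amino acid breakdown, averaged 4.06 ± 0.52 TPM and overlapped no other member. Relations between levels depended on the length used: with the longest annotated transcript in place of all exons, 6 of the 10 members had the same rank, Ilkap was placed above Ppm1b in all 4 libraries, and Ppm1a above Ppm1f.

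**Figure D1:**
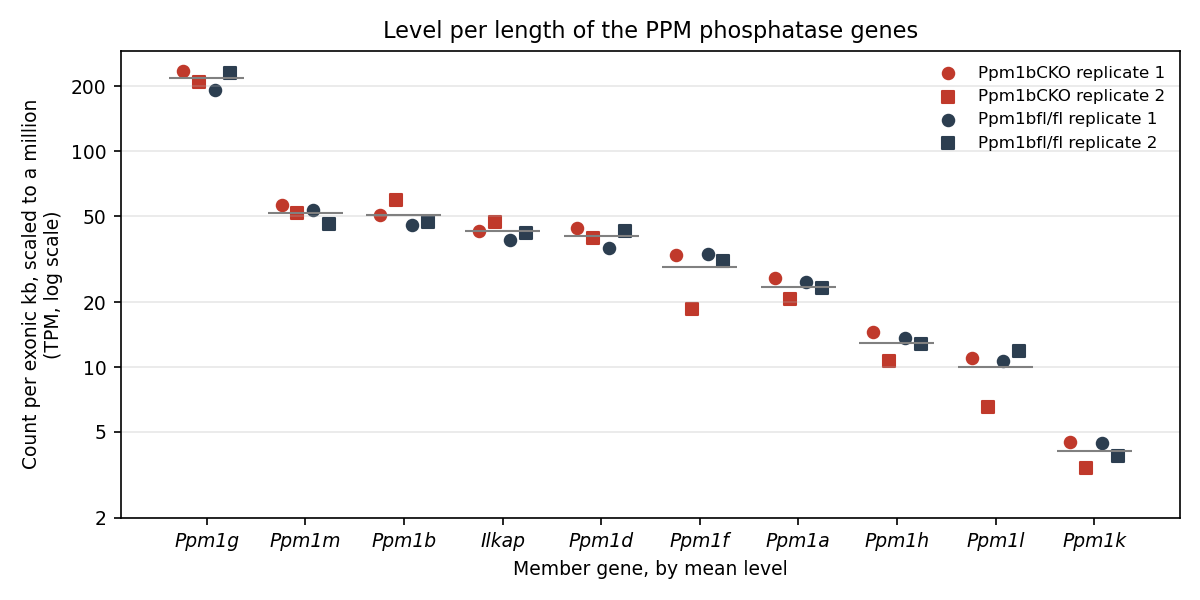
Level per length (TPM, log scale) of the 10 PPM genes in each library, with grey lines at the mean of 4 libraries. Ppm1g averaged 217 TPM, Ppm1b 50.5 TPM, Ppm1a 23.6 TPM and Ppm1k 4.06 TPM.

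Counts of Ppm1b did not go with its deletion label. Ppm1b had 84.3 and 121 TMM-normalised CPM in the libraries labelled Ppm1bCKO (1916 and 2862 counts), against 80.8 and 82.5 CPM in Ppm1bfl/fl (2149 and 2487 counts). Replicate 1 labelled Ppm1bCKO lay just above the Ppm1bfl/fl libraries, replicate 2 lay well above all others, and the genotypes did not overlap. The log2 fold change was 0.33 ± 0.20 (SE; edgeR adjusted p = 0.717), and its 95% interval, from -0.13 to 0.79, corresponds to a level between 0.914-fold and 1.72-fold of that in Ppm1bfl/fl. A gene-level count adds reads over all exons and cannot show the loss of a single exon, so the direction of every difference here rests on the labels alone.

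Of the 10 members, all passed the filter on low counts and 0 were called by edgeR at an adjusted p under 0.05, where 0.372% of all 16393 tested genes were called, 0.061% higher and 0.311% lower. At an unadjusted p under 0.05 there were also 0 members (6.44% of all genes), and DESeq2 and limma-voom called 0 members, against 1.14% and 0.305% of all genes. The median log2 fold change of the members was 0.07, beside -0.0032 over all tested genes, with 6 members positive and 4 negative. The 2 genotypes did not overlap in 2 of 10 members, Ppm1b (higher) and Ppm1l (lower), beside 41.1% of all tested genes, 20.6% in each direction.

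**Figure D2:**
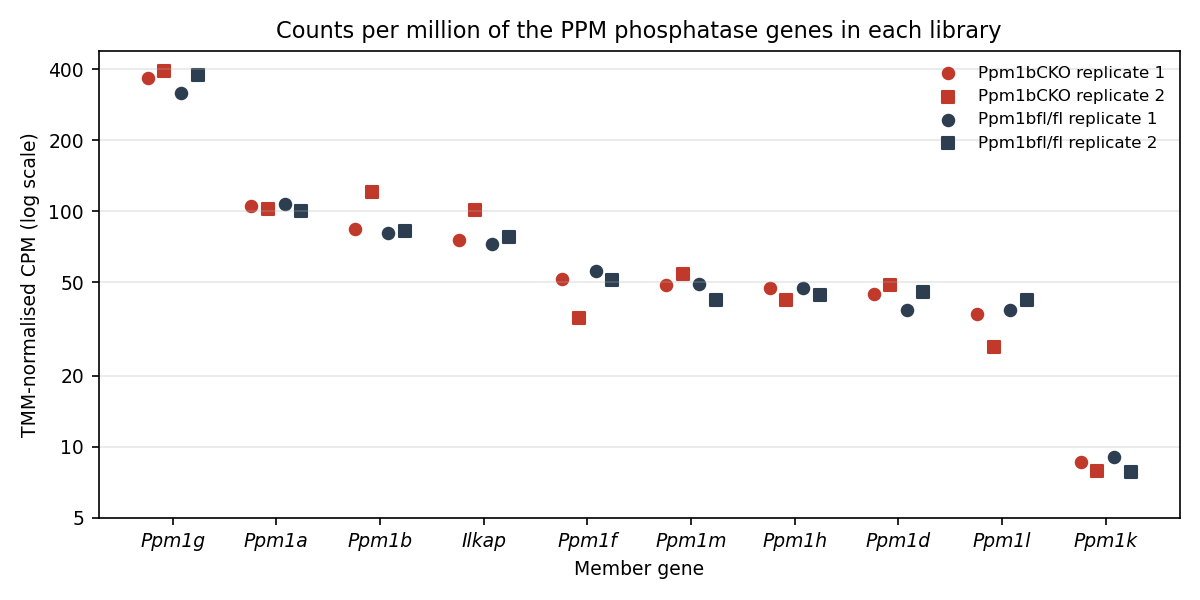
TMM-normalised CPM (log scale) of each member in the 4 libraries, ordered by mean CPM. For Ppm1b, Ilkap, Ppm1f and Ppm1l the library labelled Ppm1bCKO replicate 2 lies away from the other 3, while the 4 values of Ppm1a lie between 99.9 and 107 CPM.

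Ppm1a, whose product is nearest to PPM1B in substrates, varied little between libraries. It had 105 and 102 CPM in the libraries labelled Ppm1bCKO, against 107 and 99.9 CPM in Ppm1bfl/fl, so that the genotypes overlapped. The log2 fold change was 0.01 ± 0.16 (edgeR adjusted p = 0.991). The 95% interval ran from 0.784-fold to 1.29-fold of the level in Ppm1bfl/fl.

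Ppm1d, Ppm1g and Ilkap had positive log2 fold changes that did not pass the test, as did Ppm1a, Ppm1b and Ppm1m. Ppm1d had 44.3 and 48.4 CPM in the libraries labelled Ppm1bCKO, against 38.1 and 45.4 CPM in Ppm1bfl/fl (log2 fold change 0.15 ± 0.17, edgeR adjusted p = 0.796). Ppm1g had 365 and 394 CPM in the libraries labelled Ppm1bCKO, against 317 and 377 CPM in Ppm1bfl/fl (0.13 ± 0.18, edgeR adjusted p = 0.825). For both genes the genotypes overlapped. Ilkap had 75.8 and 101 CPM in the libraries labelled Ppm1bCKO, against 72.6 and 77.5 CPM in Ppm1bfl/fl (0.23 ± 0.19, edgeR adjusted p = 0.740), with replicate 1 labelled Ppm1bCKO between the Ppm1bfl/fl libraries and replicate 2 above them. Exons of Ilkap overlap those of Erfe on the other strand, and the strand setting is not given in the sources used here. Erfe held 326 counts over the 4 libraries, against 1723 to 2391 per library for Ilkap. How reads in the overlap were assigned is not known, so these counts do not bound its effect on Ilkap.

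Ppm1f and Ppm1l had the lowest fold changes, and these too did not pass. Ppm1f had 51.8 and 35.2 CPM in the libraries labelled Ppm1bCKO, against 55.5 and 51.1 CPM in Ppm1bfl/fl (-0.29 ± 0.21, edgeR adjusted p = 0.725). Ppm1l had 36.8 and 26.6 CPM in the libraries labelled Ppm1bCKO, against 38.1 and 41.8 CPM in Ppm1bfl/fl (-0.33 ± 0.20, edgeR adjusted p = 0.717). In both genes replicate 2 labelled Ppm1bCKO was the lowest library, and replicate 1 was close to the Ppm1bfl/fl libraries.

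The remaining members, Ppm1m, Ppm1h and Ppm1k, overlapped between genotypes. Ppm1m had 48.6 and 54.1 CPM in the libraries labelled Ppm1bCKO, against 48.9 and 41.8 CPM in Ppm1bfl/fl (0.18 ± 0.17, edgeR adjusted p = 0.768). Ppm1h ran from 42.0 to 47.3 CPM over the 4 libraries, with a log2 fold change of -0.03 ± 0.17. Ppm1k ran from 7.83 to 9.09 CPM (188 to 242 counts), with a log2 fold change of -0.03 ± 0.23 and the widest 95% interval among these 3 genes, -0.57 to 0.50. Over the 9 members other than Ppm1b the upper ends of the 95% intervals lay between 1.10-fold (Ppm1l) and 1.58-fold (Ilkap). In the fit of all 4 libraries these values bound a higher level in the libraries labelled Ppm1bCKO, and they do not show that levels were equal. The bounds depend on the fit. After removal of the length trend of each library, the log2 fold change was 0.22 ± 0.15 for Ppm1a and 0.13 ± 0.14 for Ppm1h.

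**Figure D3:**
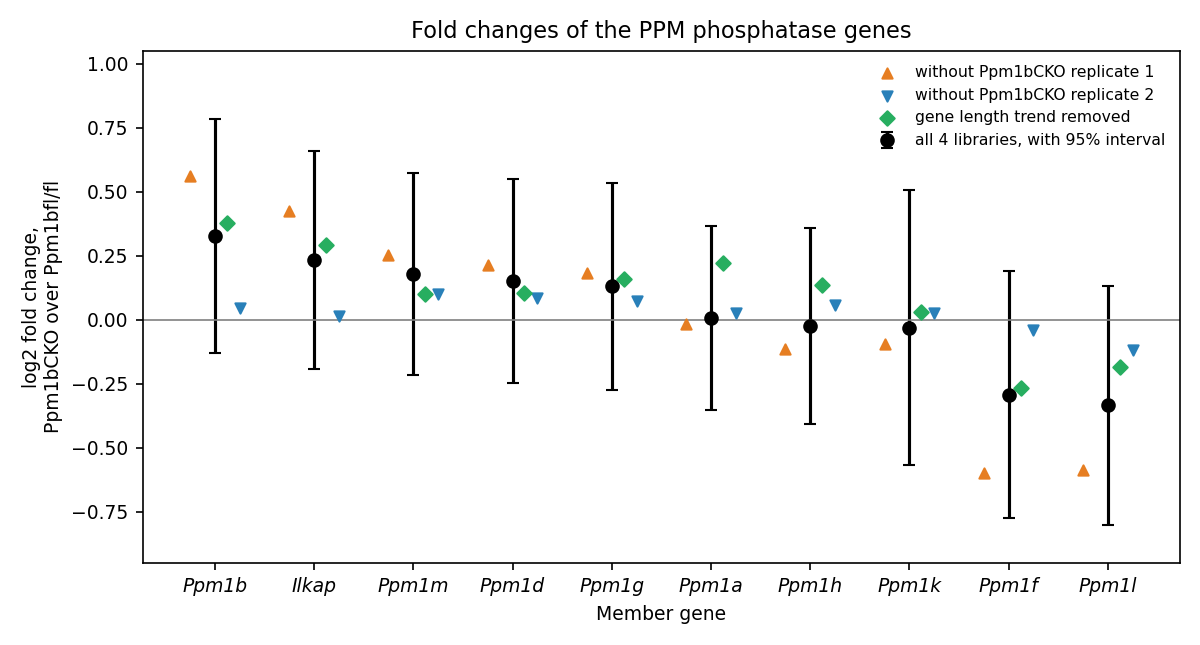
Log2 fold change (Ppm1bCKO over Ppm1bfl/fl) of each member from all 4 libraries with its 95% interval, beside the value without each library labelled Ppm1bCKO and after removal of the length trend of each library. All 10 intervals include 0, and values without replicate 1 and without replicate 2 differ most for Ppm1b, Ppm1f, Ppm1l and Ilkap.

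The values of 4 members turned on 1 library. Without replicate 1 labelled Ppm1bCKO, where replicate 2 alone stands for the genotype and is assumed to vary like the Ppm1bfl/fl libraries, edgeR called 4 of 10 members, beside 19.4% of all 17177 genes tested. Ppm1b and Ilkap were higher there, at log2 fold changes of 0.56 ± 0.12 (edgeR adjusted p = 0.0075) and 0.42 ± 0.12 (edgeR adjusted p = 0.0316), and Ppm1f and Ppm1l lower, at -0.60 ± 0.14 (edgeR adjusted p = 0.0117) and -0.59 ± 0.16 (edgeR adjusted p = 0.0207). Without replicate 2 labelled Ppm1bCKO, edgeR called 0 members, 0 had an unadjusted p under 0.05, and 0.547% of all genes were called. Their log2 fold changes were then 0.046 ± 0.12 for Ppm1b, 0.01 ± 0.13 for Ilkap, -0.04 ± 0.13 for Ppm1f and -0.12 ± 0.15 for Ppm1l.

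Some of these members lay away from most genes of their length in that library. In replicate 2 labelled Ppm1bCKO, Ppm1b was 0.55 higher on the log2 scale than the mean of the other 3 libraries, whereas the 3908 genes of 4 to 8 exonic kb had a median of -0.07, and 3.71% of them were as high as Ppm1b. Ilkap, in the same length class, was 0.42 higher, and 7.40% of the class were as high. Ppm1f, also in that class, was 0.58 lower, and 5.99% of the class was as low. Ppm1l, with 10496 exonic bases, was 0.54 lower, where 27.9% of the 1894 genes over 8 kb were as low. Ppm1a, the longest member, was 0.02 lower, above the class median of -0.32. When the length trend of each library was removed, a choice made after the data were seen, edgeR again called 0 members, 0 had an unadjusted p under 0.05, and the log2 fold change was 0.38 ± 0.19 for Ppm1b, 0.29 ± 0.18 for Ilkap, -0.27 ± 0.18 for Ppm1f, -0.19 ± 0.15 for Ppm1l and 0.22 ± 0.15 for Ppm1a. The part of gene length in the members' values was not tested otherwise. The near absence of Y-linked counts falls in the same library, so a part of sex cannot be told apart from that of gene length.

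**Figure D4:**
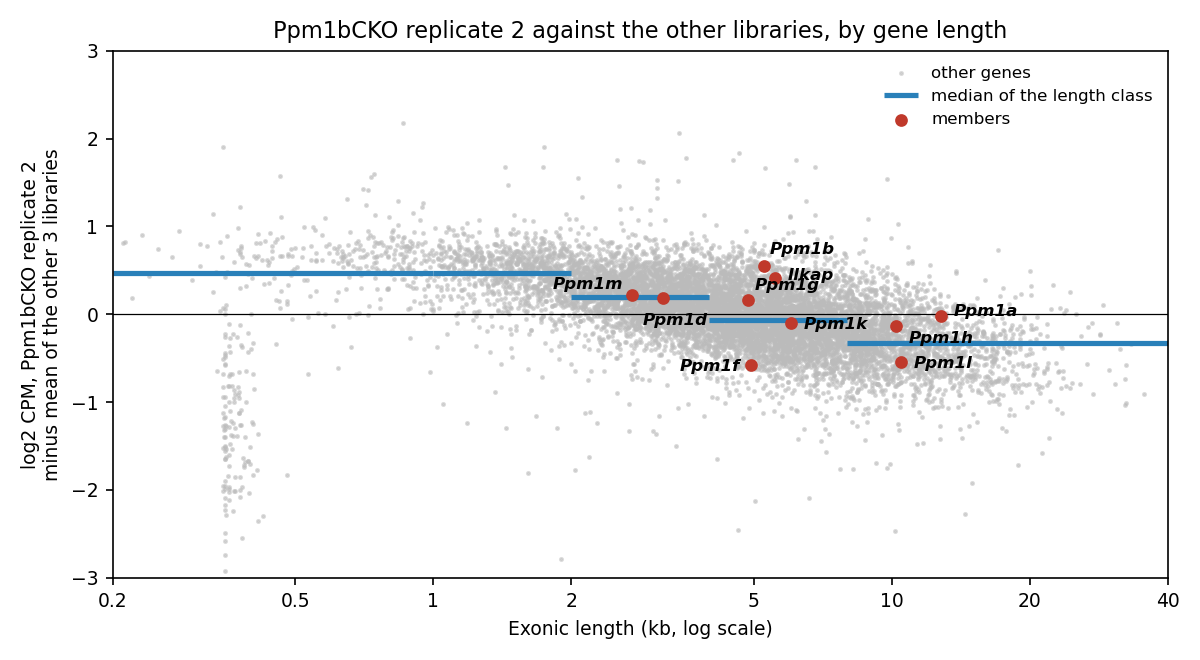
Log2 CPM in the library labelled Ppm1bCKO replicate 2 minus the mean of the other 3 libraries, against exonic length (kb, log scale), for genes with an average log2 CPM of at least 3 (grey, 17 genes lie outside the axes), with the median of each length class (blue) and the members (red). Class medians run from 0.47 for under 1 kb and for 1 to 2 kb to -0.32 for over 8 kb, and Ppm1b lies 0.61 above the median of its class.

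The mean summed level of the 10 members in the libraries labelled Ppm1bCKO was 1.07-fold that in Ppm1bfl/fl. In TMM-normalised CPM it was 868 and 932 in the libraries labelled Ppm1bCKO, against 814 and 868 in the Ppm1bfl/fl libraries, with means of 900 ± 45 and 841 ± 38 (SD, n = 2; two-sided exact permutation p = 0.667, where 0.333 is the smallest p that 2 against 2 libraries allow). Per 1000000 counts of the library total, without TMM, the members summed to 881 and 890 in the libraries labelled Ppm1bCKO, against 833 and 872 in Ppm1bfl/fl, so that the genotypes did not overlap (two-sided exact permutation p = 0.333). Ppm1b made up 9.72% and 12.7% of the family's summed TPM in the libraries labelled Ppm1bCKO, against 10.05% and 9.54% in the Ppm1bfl/fl libraries (two-sided exact permutation p = 0.667). Without replicate 2 labelled Ppm1bCKO the difference in this share, 1.43 percentage points with all libraries, was -0.069 points.

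Many other genes had the pattern of Ppm1b. Among 3928 protein-coding genes of similar CPM, the pattern over the 4 libraries (log2 CPM centred per gene) came closest to that of Ppm1b in Vti1b, Med8 and Pqbp1, with a root mean square difference of 0.0034, 0.0094 and 0.013 on the log2 scale. Vti1b had 45.2 and 64.4 CPM in the libraries labelled Ppm1bCKO, against 43.2 and 44.1 CPM in Ppm1bfl/fl. Within 0.1 there were 530 genes, so over 4 libraries the pattern was common.

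Of the PPM genes outside the 10, 0 were called by edgeR. Among 10 further family genes, 8 passed the filter and 0 were called, beside 0.372% of all tested genes. At an unadjusted p under 0.05 there were 0 (6.44% of all tested genes). A negative log2 fold change was found in 7, and the median was -0.20. The genotypes did not overlap in 4 of the 8, beside 41.1% of all tested genes. Phlpp2, which encodes a phosphatase of AKT and protein kinase C, had 55.7 and 36.9 CPM in the libraries labelled Ppm1bCKO, against 58.7 and 62.0 CPM in Ppm1bfl/fl (-0.38 ± 0.21, edgeR adjusted p = 0.717). Pptc7, a mitochondrial phosphatase gene, had 23.9 and 20.5 CPM in the libraries labelled Ppm1bCKO, against 29.6 and 26.3 CPM in Ppm1bfl/fl (-0.33 ± 0.19, edgeR adjusted p = 0.717). Tab1, whose product binds TAK1 and is a PPM-like protein without catalytic activity, and Phlpp1 both had log2 fold changes of -0.20. Ppm1n and Pp2d1 did not pass the filter, with at most 0.62 CPM and 0.084 CPM in a library.

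Catalytic subunits of the PPP family, the other large group of serine/threonine phosphatases, were called in 0 of 12 tested genes, beside 0.372% of all. At an unadjusted p under 0.05 there were 0 (6.44% of all tested genes). Of the 12, 9 had positive log2 fold changes, and the median was 0.15. The genotypes did not overlap in 10 of the 12, beside 41.1% of all tested genes. Ppp6c had 91.9 and 118 CPM in the libraries labelled Ppm1bCKO, against 80.0 and 84.3 CPM in Ppm1bfl/fl (0.35 ± 0.18, edgeR adjusted p = 0.717). Ppp1cb, Ppp4c and Ppp3ca, of PP1, PP4 and calcineurin, had log2 fold changes of 0.25, 0.28 and 0.22. Ppef1 did not pass the filter, with at most 0.22 CPM in a library.

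Transcripts of proteins reported as substrates of PPM phosphatases were likewise called in 0 cases, beside 0.372% of all tested genes. Among 18 substrate genes of PPM1A and PPM1B, 7 were positive and 11 negative in log2 fold change, and the median was -0.06. Of these, 0 had an unadjusted p under 0.05 (6.44% of all tested genes). The genotypes did not overlap in 8 of the 18, beside 41.1% of all tested genes. Map3k7, which encodes TAK1, had 92.8 and 77.3 CPM in the libraries labelled Ppm1bCKO, against 94.7 and 101 CPM in Ppm1bfl/fl (-0.21 ± 0.17, edgeR adjusted p = 0.744). The cell cycle kinase gene Cdk6, with 13989 exonic bases, had a log2 fold change of -0.30 ± 0.24, the MAP kinase kinase gene Map2k3 one of 0.19 ± 0.17 and the TGF-β signalling gene Smad2 one of 0.16 ± 0.16. Among 22 substrate genes of the other members, 13 were positive and 9 negative, 0 had an unadjusted p under 0.05, and the median was 0.03. The genotypes did not overlap in 8 of the 22. Cdkn1b, which encodes the cell cycle inhibitor p27 that PPM1H acts on in human cells, had 146 and 159 CPM in the libraries labelled Ppm1bCKO, against 122 and 125 CPM in Ppm1bfl/fl (0.30 ± 0.16, edgeR adjusted p = 0.717). Atm, a DNA damage kinase gene of 10338 exonic bases, had 43.2 and 18.1 CPM in the libraries labelled Ppm1bCKO, against 45.1 and 43.0 CPM in Ppm1bfl/fl (-0.53 ± 0.35, edgeR adjusted p = 0.723). The stress sensor gene Ern1 and Bckdhb, a subunit gene of the branched-chain complex, had log2 fold changes of -0.39 ± 0.27 and 0.30 ± 0.21.

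The genes beside Ppm1b on chromosome 17 were called in 0 of 7 tested cases, beside 0.372% of all tested genes. At an unadjusted p under 0.05 there were 0 (6.44% of all tested genes). There were 3 positive and 4 negative log2 fold changes, with a median of -0.01. The genotypes did not overlap in 2 of the 7, beside 41.1% of all tested genes. Slc3a1, next to the end of Ppm1b and an amino acid transporter gene, lay below 1 CPM in each library (0.77 ± 0.53, edgeR adjusted p = 0.723), and Plekhh2, also below 1 CPM, had a log2 fold change of -0.41 ± 0.61. Camkmt, a calmodulin methyltransferase gene, had 6.11 and 5.44 CPM in the libraries labelled Ppm1bCKO, against 4.62 and 4.84 CPM in Ppm1bfl/fl (0.29 ± 0.26, edgeR adjusted p = 0.756), and Dync2li1 had a log2 fold change of -0.27 ± 0.37. Abcg5 and Abcg8 did not pass the filter, with at most 0.044 CPM.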

How the data were processed

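Gene counts of mouse bone marrow cells were used as deposited: the authors' table holds raw whole-number counts per gene and each gene's exonic length in bases. Build mm10, featureCounts 2.0.1, HISAT2 2.2.0 and Trim Galore 0.6.7 are named in the submitters' processing notes. The annotation, strand setting and treatment of multi-mapping reads are not given in the sources used here. Of 55399 identifiers, 55139 matched GENCODE M21 of the same build. Total counts ran from 22393973 to 30045382, and a count of 0 allows up to 3 counts (0.0998 to 0.134 CPM, counting error only).

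The quasi-likelihood test of edgeR 4.0.16 (R 4.3.3) was run with TMM normalisation, a robust fit, no covariates and the filterByExpr minimum of 10 counts, or 15 in total. P-values were adjusted by Benjamini-Hochberg over 16393 genes, threshold 0.05. Intervals (95%) come from the same fit. The biological coefficient of variation was 19.1%. Replicates differed beyond sampling noise (chi-square per degree of freedom 47.8 for Ppm1bCKO, 22.9 for Ppm1bfl/fl). TPM used the deposited exonic lengths. In counts simulated for this comparison over 15978 genes, 47 of 100 genes set to change 2-fold were called, as were 92 of 100 at 4-fold, beside 20 false calls. These false calls are a larger share of all calls than the threshold of 0.05. The genes set to change were drawn only from those with higher counts, and no length trend was simulated, so recovery over all tested genes may differ. Members and lists were chosen with earlier results of these data known. All members were named whatever their p. From each other list that holds no markers up to 4 tested genes with the smallest p were named, and also those below the filter, of the markers Kit, Ly6a and the most abundant of each other cell type, and for the pattern of Ppm1b the 3 nearest genes outside the lists. Erfe was named for its overlap. Alternatives were DESeq2 1.42.0 and its size factors, limma-voom (limma 3.58.1), other filters, immunoglobulin genes left out, a replicate block, each library left out, another gene length and, chosen after the data were seen, removal of the length trend of each library (lowess span 0.3).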

Additional observations from a re-analysis of the deposited data

How the results depend on the processing

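Of 120 values of the members' fold changes under 12 alternatives each, 107 stayed on the same side of the threshold with the same sign, 4 passed it (those given for the fit without Ppm1bCKO replicate 1), and 9 changed sign, all in Ppm1a, Ppm1h and Ppm1k, whose log2 fold changes were at most 0.032 in size. Ppm1a was at -0.0021 with no low-count filter and from -0.044 to 0.053 with a library left out. Ppm1h and Ppm1k were at 0.13 and 0.031 after the trend with gene length was removed, and from -0.12 to 0.057 and from -0.14 to 0.076 with a library left out. Ppm1b ranged from 0.046 to 0.56 with a library left out, and the number of members called from 0 to 4. The difference in the share of Ppm1b in the family ranged from -0.069 to 2.94 percentage points with a library left out. Genes called over the whole table numbered 61, and 187 by DESeq2, 311 with no low-count filter, and 0 with immunoglobulin genes left out (989 at an unadjusted p under 0.05 in edgeR), where the tested set lacked 216 immunoglobulin genes. With a library left out they ranged from 94 to 3336, the highest number without Ppm1bCKO replicate 1. The cause of the other changes was not tested. With the replicate number as a block, edgeR called 207 genes and 0 members, and Ppm1b had a log2 fold change of 0.31 (adjusted p = 0.586). The numbers are not known to pair the libraries, and the correlation of same-numbered deviations was 0.079. With 2 libraries a genotype, the depth and spread allowed 95% intervals 0.716 (Ppm1a) to 1.07 (Ppm1k) wide on the log2 scale.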
